A study of Mus musculus with 4 samples.

Results

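Signals of 58 developmental transcription factor genes of the Sox, Gata, T-box, Fox and basic helix-loop-helix families, with the Ebf and Zic genes and Wt1, were examined in basal cells of embryonic mouse skin. Every probe set annotated to exactly 1 of these symbols was taken, dim ones included, which gave 133 of 45037 non-control probe sets and covered 57 of the 58 genes. Foxe1 was not analysed here. The samples were basal cells, the progenitor layer of the epidermis, purified by flow cytometry from wild-type (WT) embryos and from embryos in which Ezh2 was conditionally knocked out (Ezh2cKO). Both genotypes were taken at embryonic day 16, from mice of mixed C57 and CD1 strain. Ezh2cKO is the only manipulation named, and the labels name neither the Cre driver nor the deleted exons. Each genotype had 2 Affymetrix arrays, numbered 1 and 2. Nothing in the labels says that these came from separate animals, so a p-value covers the spread between these arrays alone, and that spread may in part be technical.

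Ezh2 is the enzyme within Polycomb repressive complex 2 (PRC2) that methylates histone H3 at genes to be silenced. In embryonic stem cells and many tissues, genes for lineage-determining transcription factors such as these are classic Polycomb targets, with CpG-rich promoters, and are kept silent outside their own lineage. The comparison asked which of them depend on Ezh2 in epidermal progenitors. Sox proteins bind DNA through an HMG box, Gata proteins through zinc fingers, T-box and Fox proteins through the domains that name them, and bHLH proteins as dimers with E proteins.

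The promoters of a pair of neighbouring Fox genes and of a pair of Sox genes are shown first, because Foxc1 held the probe set that was at least 1.5-fold apart, on the log2(signal + 16) scale, within both array numbers, and Foxf2 is its neighbour. Sox4 is an example with signal in basal cells and Sox1 an example without, and neither is typical of such genes in its number of CG dinucleotides. Each is the 250 bases before the transcription start in RefSeq (GRCm38.p6), 5′ to 3′, with every CG dinucleotide in capitals. Foxc1 lies at chr13:31806396-31806645 on the plus strand and Foxf2 at chr13:31625566-31625815 on the plus strand. Sox4 lies at chr13:28953700-28953949 on the minus strand and Sox1 at chr8:12395269-12395518 on the plus strand.
Foxc1: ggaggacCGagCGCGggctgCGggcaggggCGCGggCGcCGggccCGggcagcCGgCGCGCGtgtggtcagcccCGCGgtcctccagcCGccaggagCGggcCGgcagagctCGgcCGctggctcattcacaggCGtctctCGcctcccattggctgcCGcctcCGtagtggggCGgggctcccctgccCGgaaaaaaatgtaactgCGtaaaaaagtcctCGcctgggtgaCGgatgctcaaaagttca
Foxf2: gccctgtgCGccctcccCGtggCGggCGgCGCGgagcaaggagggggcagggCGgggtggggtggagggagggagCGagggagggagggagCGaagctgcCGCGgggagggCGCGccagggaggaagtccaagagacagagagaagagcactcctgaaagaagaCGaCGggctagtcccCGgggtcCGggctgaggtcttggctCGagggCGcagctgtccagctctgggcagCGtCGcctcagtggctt
Sox4: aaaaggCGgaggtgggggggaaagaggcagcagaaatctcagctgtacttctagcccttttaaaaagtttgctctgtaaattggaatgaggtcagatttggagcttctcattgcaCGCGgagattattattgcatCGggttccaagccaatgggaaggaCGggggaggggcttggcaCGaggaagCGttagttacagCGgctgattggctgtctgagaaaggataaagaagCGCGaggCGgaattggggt
Sox1: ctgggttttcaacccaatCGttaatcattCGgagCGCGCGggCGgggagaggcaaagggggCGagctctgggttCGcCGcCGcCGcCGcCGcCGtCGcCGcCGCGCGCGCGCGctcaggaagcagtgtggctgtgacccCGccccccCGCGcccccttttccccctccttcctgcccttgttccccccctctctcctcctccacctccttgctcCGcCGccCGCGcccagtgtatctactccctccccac
The printed stretch holds 29 CG dinucleotides in Foxc1, 21 in Foxf2, 11 in Sox4 and 29 in Sox1.

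Ezh2 itself gave 3336 and 3603 in WT, against 661 and 1308 in Ezh2cKO. Both knockout values lay below both WT values (log2 difference -1.88, 95% interval -2.67 to -1.09), yet its adjusted p in limma was 0.99999, so the deleted gene itself did not pass the threshold over all probe sets. Median signal over all probe sets was 91.6 and 87.4 on the arrays numbered 1 and 137 and 148 on those numbered 2, so each difference is also given separately for number 1 and for number 2, with a single array of each genotype. All 6 basal keratinocyte markers, Krt5 and Krt14 among them, were on by the level defined below, with a summed signal of 58380 to 66810. The sum hides Itga6, which had 11908 and 10639 in WT and 6327 and 9411 in Ezh2cKO, 0.532 and 0.885 times. All 8 dermal fibroblast markers (summed signal 62690 to 71860) and all 8 endothelial markers were on as well. Ezh2cKO replicate 1 stood apart: its Xist signal was 86.9 against 8669 to 11333 on the other arrays, so the Ezh2cKO arrays lay far apart from each other in this gene. Its endothelial marker sum was 4544, against 8529 to 10480 elsewhere. In RNA from a sorted population, fewer cells of a type and less RNA per cell cannot be told apart. Signals of different probe sets are not comparable as levels, so genes are not ranked against each other.

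A gene was called on in WT when its probe set with the highest mean signal reached the array's own median on both WT arrays. By this level 27 of 57 genes (47.4%) were on, while 60.1% of all 18193 genes were. Of the member probe sets 54 of 133 (40.6%) were on, against 46.0% of all. The table holds no detection calls, so a gene below the level may still be transcribed. By family, 10 of 13 Sox genes and all 3 Ebf genes were on, against 7 of 13 Fox, 4 of 9 T-box, 2 of 11 bHLH, 1 of 5 Gata and 0 of 2 Zic genes, and Wt1 was not. With each array's 75th percentile as the level, 5 genes remained, namely Sox4, Sox6, Sox7, Sox13 and Foxp1.

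No member differed between the genotypes by the fit across all probe sets. In limma with Benjamini-Hochberg adjustment, 0 of 133 member probe sets passed an adjusted p of 0.05, as did 0.0% of all 45037. At an unadjusted p under 0.05, limma had 1 member higher, Olig2, and 1 lower, a probe set of Sox6, where 0.731% and 0.389% of all probe sets reached that level. An exact permutation test of 2 against 2 arrays cannot give a p below 0.333. As a measure of size, probe sets at least 1.5-fold apart in the same direction within both numbers were counted, on the log2(signal + 16) scale, which understates changes of dim genes. Folds and fold limits given for genes were also taken on this scale, unless the printed signals are named. A change of this size within both numbers held for 1 member higher in Ezh2cKO, a Foxc1 probe set, and 0 lower, where 1.18% and 0.562% of all probe sets did so. Both Ezh2cKO arrays lay above both WT arrays for 13 members (9.77%, background 9.11%) and below them for 11 (8.27%, background 8.23%). Thus both counts lay near the background under the authors' scaling. The split depends on the scaling: it was 14 higher and 18 lower under quantile normalization (background 10.1% and 11.0%), and 11 higher and 19 lower when arrays were scaled to a common median (background 8.24% and 8.75%). The median log2 difference over the 133 probe sets was -0.03, with -0.16 within number 1 and 0.04 within number 2, and over all probe sets it was 0.01, -0.01 and 0.03.

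**Figure D1:**
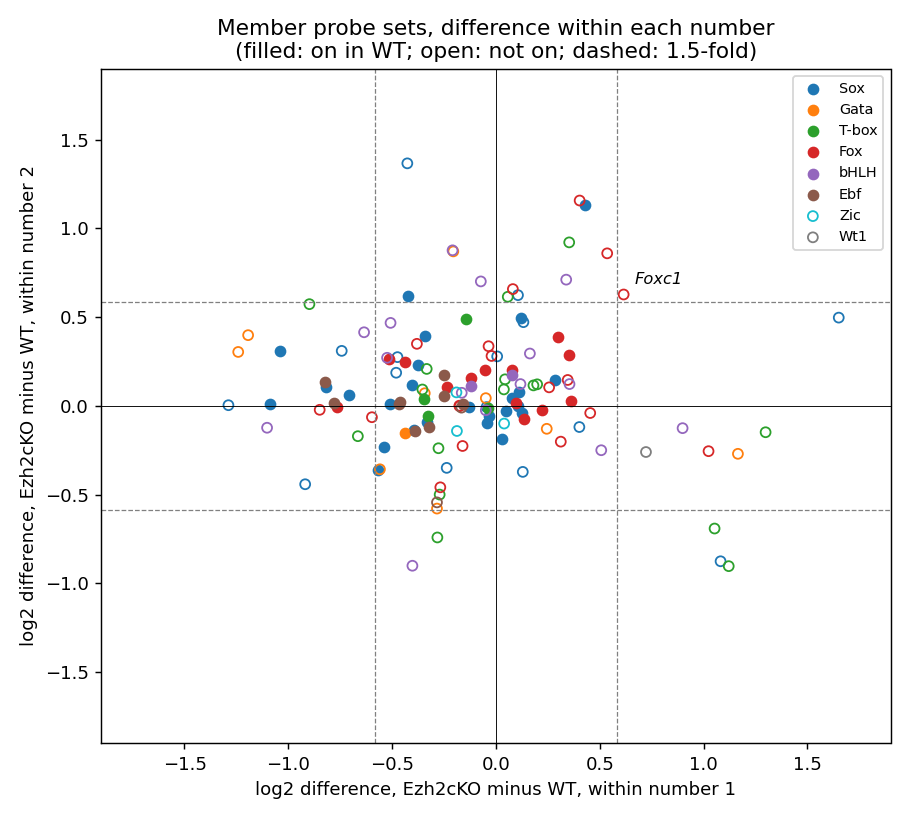
Each point is 1 of the 133 member probe sets, with the log2 difference (Ezh2cKO minus WT, of signal + 16) within number 1 on the x axis and within number 2 on the y axis, coloured by family and filled where the probe set was on in WT. Only the labelled Foxc1 probe set lies past the dashed 1.5-fold lines in the same direction on both axes.

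By the brightest probe set of each gene, 24 of the 27 genes on in WT stayed within 1.5-fold of WT within both numbers. The other 3, Sox7, Sox18 and Foxf1, were lower within number 1 only. In none of the 27 did the genotypes separate by the brightest probe set. The 95% intervals of their log2 differences extended from 0.38 to 2.27 to each side, with a median of 0.99. Thus 2-fold differences in many of them could not be told from 0. Other probe sets of these genes can differ from the brightest. Of all 54 member probe sets on in WT, 4 separated the genotypes upwards, from Sox4, Sox6 and Foxp1, and 1 downwards, from Sox6. The share among all probe sets on in WT is not given here.

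Sox4, a SoxC factor of progenitor cells, had the narrowest interval. It had 12956 and 12926 in WT and 13413 and 12663 in Ezh2cKO. The genotypes overlapped (log2 difference 0.01, 95% interval -0.37 to 0.39). Its 6 probe sets that were on gave log2 differences from -0.07 to 0.31. Its SoxC paralog Sox11 had 298 and 429 in WT and 223 and 389 in Ezh2cKO, overlapping too.

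Sox9, a factor of hair follicle progenitors, had 538 and 335 in WT and 582 and 355 in Ezh2cKO by its brightest probe set. Its folds of Ezh2cKO over WT were 1.08 and 1.06 within the numbers. A second probe set of Sox9 had 399 and 156 in WT and 543 and 360 in Ezh2cKO, which is 1.35-fold and 2.19-fold. The second did not separate the genotypes (log2 difference 0.78, 95% interval -0.39 to 1.95). Its remaining probe set, not on, had 12.3 and 7.50 in WT and 5.02 and 44.6 in Ezh2cKO. Its folds of 0.744 and 2.58 point in opposite directions, and the latter was the largest Sox difference within number 2. Sox2, known in hair placodes, dermal papillae and Merkel cells, had 184 and 349.5 in WT and 167 and 347 in Ezh2cKO, with nearly equal values within each number.

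The SoxD genes, whose proteins dimerize and lack a transactivation domain, also overlapped between the genotypes by their brightest probe sets. Sox6 had 1349 and 1629 in WT and 1376 and 1427 in Ezh2cKO. Its 4 probe sets, all on, ranged from log2 -0.47 to 0.21, and 1 separated the genotypes downwards and 1 upwards. Sox13 had 558 and 632 in WT and 589.6 and 652 in Ezh2cKO, a log2 difference of 0.06. Sox5 had 165 and 229.9 in WT and 127 and 307 in Ezh2cKO, with opposite differences within the numbers.

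Sox7, Sox17 and Sox18 form the SoxF group, regulators of blood vessel endothelium. Sox7 had 579 and 809 in WT and 273 and 1006 in Ezh2cKO, 0.486 times WT within number 1 and 1.24 times within number 2. Sox18 had 1086 and 462 in WT and 503 and 465 in Ezh2cKO, 0.471 and 1.01 times. Sox17 had 328 and 432 in WT and 244 and 471 in Ezh2cKO, 0.756 and 1.08 times. All 3 were thus lower on the Ezh2cKO array within number 1 and not within number 2. The 8 endothelial markers showed the same split, being lower in 8 of 8 cases within number 1 (median log2 -0.86) and higher in 7 of 8 within number 2 (median 0.07). Cdh5, the cadherin of endothelial junctions, had 1881 and 2116 in WT and 791 and 2180 in Ezh2cKO. Their summed signal was 8529 and 9845 in WT and 4544 and 10480 in Ezh2cKO, and the part of endothelial RNA in the SoxF values was not tested. The mean log2 differences were -0.37 for Sox7, -0.14 for Sox17 and -0.54 for Sox18. When Ezh2cKO replicate 1 was left out they became 0.55, 0.31 and -0.59, and when WT replicate 1 was left out that of Sox18 became 0.07.

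**Figure D2:**
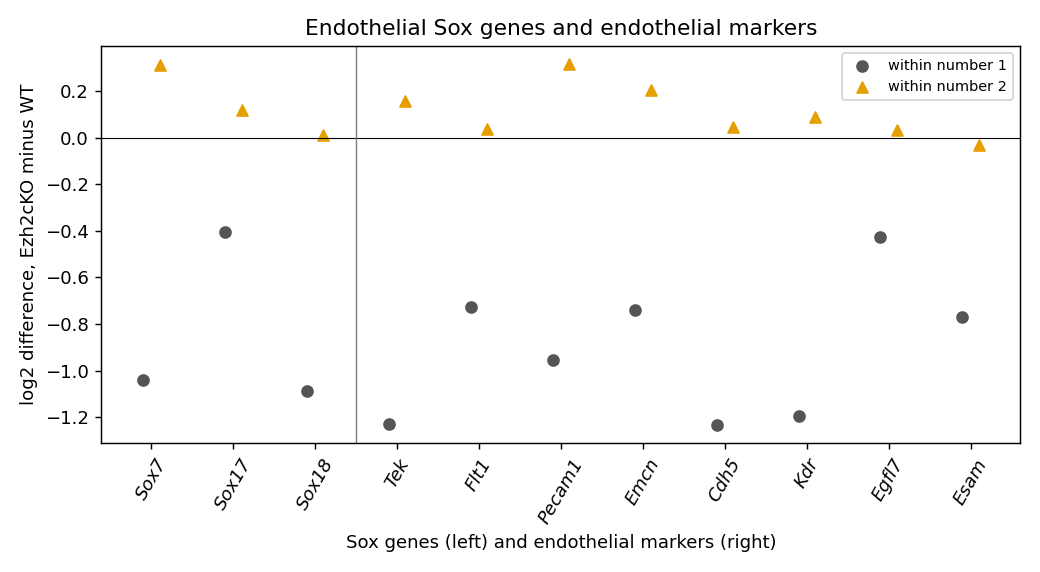
Points give the log2 difference, Ezh2cKO minus WT, of Sox7, Sox17, Sox18 and 8 endothelial markers on the y axis, within number 1 (circles) and within number 2 (triangles), each from 1 array per genotype. All 11 genes lie below 0 within number 1, and within number 2 they lie between -0.03 and 0.32.

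Over all 133 probe sets, 18 were at least 1.5-fold lower within number 1 (13.5%, background 7.89%) and 10 higher (7.52%, background 6.36%). Within number 2, 5 were lower (3.76%, background 4.25%) and 14 higher (10.5%, background 8.03%). Among probe sets on in WT, 7 of 54 members (13.0%) were at least 1.5-fold lower within number 1, where 4.35% of all such probe sets were, and 0 were within number 2, where 0.743% were. The 7 belonged to Sox7, Sox11, Sox17, Sox18, Foxf1 and Ebf3. In the other direction 0 members were past 1.5-fold within number 1 (background 2.35%) and 2 within number 2 (3.7%, background 1.6%), a Sox4 and a Sox9 probe set. Marker sums of further cell types differed within number 1 as well. The adipocyte sum was 9960 in WT and 2556 in Ezh2cKO, and the melanocyte sum was 2384 and 1733. Within number 2 these were 5962 and 6322 for adipocytes and 1650 and 1669 for melanocytes. The adipocyte sum was nearly all Fabp4, and Adipoq, at 1056 and 33.8 within number 1 and 119.9 and 78.5 within number 2, was lower in Ezh2cKO in both, as was Cidec. The fibroblast sum was 62960 and 62690 within number 1, where 5 of the 8 markers were lower in Ezh2cKO and 3 higher. Of the defining markers, 3 of 7 melanocyte and 1 of 3 adipocyte genes were on in WT. Further lists gave 2 of 6 Merkel cell, 1 of 6 immune, 1 of 3 erythroid, 4 of 6 skeletal muscle and 2 of 3 Schwann cell and nerve genes on. What part these cell types have in the 7 lower probe sets was not tested.

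Sox1, Sox3 and Sox14, factors of the nervous system, were not on. Sox1 had 11.6 and 9.23 in WT and 7.40 and 3.81 in Ezh2cKO. Sox14 had 11.0 and 8.63 in WT and 13.6 and 18.2 in Ezh2cKO. Sox3 had 150.1 and 121 in WT and 104 and 149.9 in Ezh2cKO by its brightest probe set, and the largest Sox difference within number 1, 3.14-fold, came from its other probe set at 4.19 in WT and 47.4 in Ezh2cKO. That probe set had 47.7 and 73.9 within number 2, so its WT arrays differed as much as its genotypes did within number 1.

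Of the Gata genes, only Gata2, a factor of blood and endothelial lineages, was on, with 249 and 329 in WT and 179 and 294 in Ezh2cKO. A dimmer Gata2 probe set had the largest Gata difference within number 1, 0.423 times, and a fold above 1 within number 2. The erythroid factor Gata1 had 72.6 and 94.2 in WT and 53.9 and 99.7 in Ezh2cKO. Gata4, an endoderm and heart factor, had 98.8 and 107 in WT and 61.9 and 79.7 in Ezh2cKO. Both Ezh2cKO values of Gata4 were below both WT values. On the log2 scale with the constant added, they were 0.679 and 0.781 times WT, inside 1.5-fold in each number. The printed signals of Gata4 were past 1.5-fold within number 1 and inside it within number 2. Gata6 had 159.9 and 128 in WT and 137 and 247 in Ezh2cKO, 1.83-fold higher within number 2 and 0.867 times within number 1. Its 3 probe sets had log2 differences of both signs, from -0.43 to 0.33. Gata5 was not on and its probe sets gave opposite signs.

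Tbx1, Tbx2, Tbx15 and Tbx18 were the T-box genes on in WT. Tbx1, which acts in hair follicle stem cells and the pharynx, had 225 and 149 in WT and 219 and 148 in Ezh2cKO, nearly equal within each number. Tbx15 and Tbx18 are known in dermal mesenchyme. Tbx15 had 219 and 354 in WT and 197 and 503 in Ezh2cKO, and the folds of Tbx18 were 0.796 and 0.961. Tbx2 had 329.5 and 427 in WT and 255 and 439.9 in Ezh2cKO. In all 4 genes the genotypes overlapped. The limb and heart factors Tbx4, Tbx5 and Tbx20, with Tbx3 and Eomes, were not on, at WT signals of 3.82 to 121. Among them Tbx5 had 22.6 and 47.3 in WT and 79.0 and 41.1 in Ezh2cKO, 2.46-fold within number 1 and 0.902 times within number 2. Tbx4 had 3.82 and 27.8 in WT and 9.31 and 66.8 in Ezh2cKO, 1.28-fold and 1.89-fold. Neither moved 1.5-fold within both numbers on that scale, while the printed signals of Tbx4 were past 1.5-fold within both.

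Foxc1, a forkhead factor of mesenchyme, eye and hair follicle stem cells, was the Fox gene with higher signal in both Ezh2cKO arrays by both of its probe sets. The brighter probe set had 129.5 and 109.7 in WT and 176 and 264 in Ezh2cKO (mean 119.6 ± 14.0 and 220.4 ± 62.1, SD, n = 2). The folds of Ezh2cKO over WT were 1.32 for number 1 and 2.23 for number 2. The dimmer one had 36.7 and 54.8 in WT and 64.7 and 93.4 in Ezh2cKO, 1.53-fold and 1.54-fold. The genotypes did not overlap in either, which 9.11% of all probe sets also showed upwards. In limma the log2 difference was 0.78 (SE 0.42, 95% interval -0.24 to 1.80) for the brighter and 0.62 (SE 0.51, -0.63 to 1.87) for the dimmer, with adjusted p = 0.99999 for both. With 1 array left out, the brighter probe set gave 0.51 to 1.05. Foxc1 passed the on level in both Ezh2cKO arrays but on only 1 WT array, as Sox3 and Gata6 did. These 3 of 57 genes were on in Ezh2cKO and not in WT, which 1.37% of all genes were, and Foxc2 and Foxf1 were on in WT and not in Ezh2cKO, as 1.63% were. The neighbours of Foxc1 in the genome, Foxf2 and Foxq1, did not share its values. Foxf2 had 57.8 and 50.1 in WT and 40.7 and 68.2 in Ezh2cKO, and Foxq1 had 74.3 and 97.9 in WT and 96.1 and 83.1 in Ezh2cKO.

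Foxp1, a forkhead repressor of hair follicle stem cells, had 2799 and 1927 in WT and 3075 and 1828 in Ezh2cKO, overlapping. All 8 of its probe sets had positive log2 differences over both numbers, from 0.03 to 0.38, and 2 of them separated the genotypes. Within number 2 alone the brightest had a log2 difference of -0.08, and another probe set that was on had -0.02. A dim one, with 32.9 and 164 in WT and 83.5 and 135 in Ezh2cKO, had the largest Fox difference within number 1 (2.03-fold) and the opposite direction within number 2. Foxn1, the nude gene, which acts in keratinocyte differentiation, had 511 and 249 in WT and 492 and 289.5 in Ezh2cKO. Foxd3, a neural crest factor, had 527 and 474 in WT and 445 and 512 in Ezh2cKO. Foxl2, an ovary and eyelid factor, had 239.7 and 274 in WT and 257 and 278 in Ezh2cKO. None of these separated the genotypes. Foxf1, a mesenchymal factor, had 107 and 380.5 in WT and 56.5 and 379 in Ezh2cKO, so it differed more between the array numbers than between the genotypes. Its log2 difference of -0.39 became 0.84 without Ezh2cKO replicate 1 and -1.61 without Ezh2cKO replicate 2. Its neighbouring gene Foxc2 had 117 and 168 in WT and 76.9 and 204 in Ezh2cKO. Foxp2 was on at 134 and 223 in WT, with folds of 0.919 and 1.11. Foxa1, an endoderm factor, had 5.46 and 8.36 in WT and 15.1 and 28.2 in Ezh2cKO, 1.45-fold and 1.81-fold. Both Ezh2cKO values of Foxa1 lay above both WT values, far below the on level. Foxa2 had 59.8 and 90.6 in WT and 47.0 and 61.6 in Ezh2cKO. Foxd1, a kidney stroma and dermal factor, had 107 and 86.1 in WT and 52.6 and 84.6 in Ezh2cKO. The genotypes overlapped for Foxa2 and lay apart for Foxd1, by a narrow margin within number 2.

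Twist1 and Hand1 were the bHLH genes on in WT. Twist1, a mesenchymal factor, had 277 and 690.1 in WT and 293 and 781 in Ezh2cKO, 1.06-fold and 1.13-fold higher. Hand1 had 111 and 156 in WT and 101 and 170.2 in Ezh2cKO, with a log2 difference near 0 (-0.0022). The neurogenic genes Neurog1, Neurog2, Neurod1, Olig1 and Olig2, the myogenic genes Myod1 and Myf5, and Atoh1 and Hand2 were not on. Atoh1, the Merkel cell determinant, had 101 and 77.3 in WT and 134 and 85.6 in Ezh2cKO, 1.28-fold and 1.09-fold. Myod1 had 60.5 and 101.9 in WT and 69.7 and 129 in Ezh2cKO, and Myf5 stayed between 0.802 and 5.30 on all arrays. Olig2, an oligodendrocyte and motor neuron factor, had 1.76 and 0.741 in WT and 6.45 and 11.4 in Ezh2cKO. Those values lie below the added constant of 16, and limma's adjusted p was 0.99999. Neurog2 had 37.3 and 48.2 in WT and 24.3 and 18.4 in Ezh2cKO, 0.757 and 0.536 times. Hand2 had 35.5 and 34.6 in WT and 7.97 and 30.4 in Ezh2cKO. This was the largest bHLH difference within number 1 (0.466 times, of signal + 16).

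Ebf1, Ebf2 and Ebf3, helix-loop-helix factors of B cells, fat and mesenchyme, were all on. Ebf1 had 308 and 837 in WT and 243 and 770.2 in Ezh2cKO. Ebf2, a factor of the adipocyte lineage, had 253 and 564 in WT and 178 and 568 in Ezh2cKO. Ebf3 had 292 and 393 in WT and 219 and 355 in Ezh2cKO. All 11 Ebf probe sets had log2 differences below 0, from -0.41 to -0.04, and the family median was -0.32 within number 1 and 0.01 within number 2. The number 2 median turned to -0.04 under quantile normalization and -0.10 under scaling to a common median. The genotypes overlapped by the brightest probe set of each gene. Without Ezh2cKO replicate 1 the log2 differences of these probe sets turned to 0.58 for Ebf1, 0.56 for Ebf2 and 0.06 for Ebf3. The largest Ebf differences were 0.566 times within number 1, by a dimmer Ebf3 probe set, and 0.686 times within number 2, by a dim Ebf1 probe set. Beside them, the adipocyte markers were lower in Ezh2cKO in 3 of 3 cases within number 1 and in 2 of 3 within number 2, and their part was not tested. Zic1 had 65.7 and 161 in WT and 55.6 and 171 in Ezh2cKO. Zic2 had 10.4 and 5.86 in WT and 7.16 and 3.82 in Ezh2cKO, and Wt1, a kidney and gonad factor, had 5.86 and 32.3 in WT and 20.1 and 24.3 in Ezh2cKO.

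**Figure D3:**
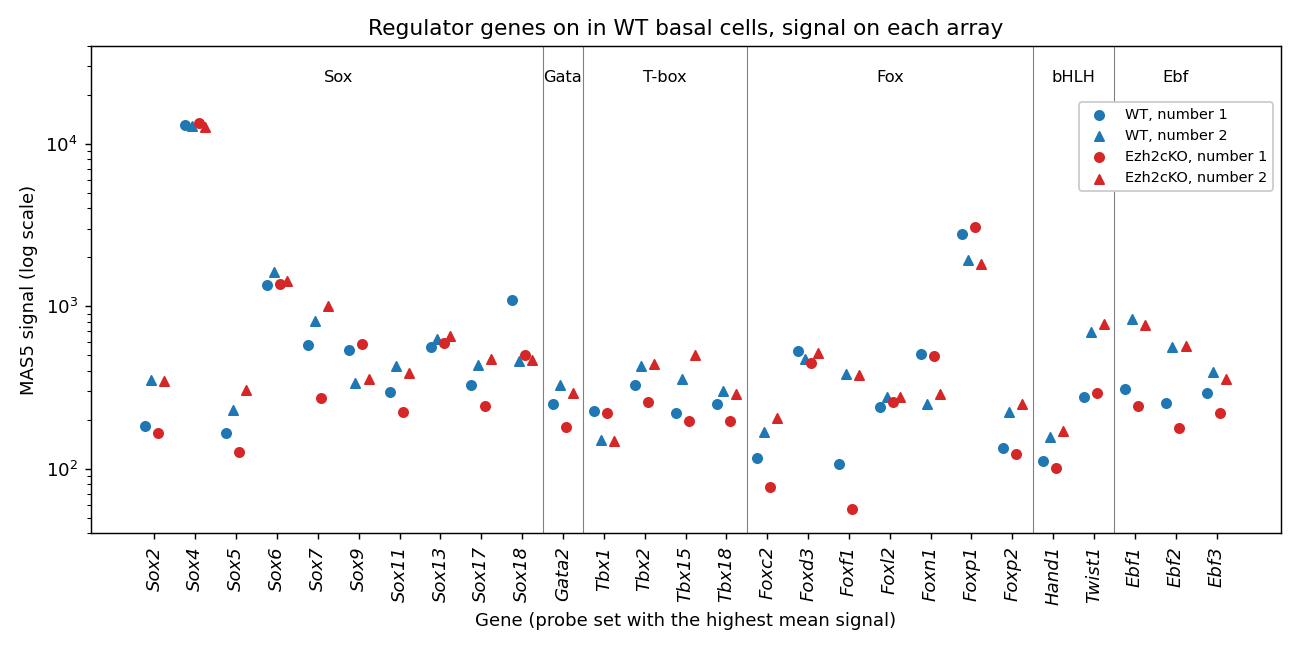
Each column is 1 of the 27 genes on in WT, with the MAS5 signal of its brightest probe set on the log-scaled y axis and 1 point per array (blue WT, red Ezh2cKO, circles number 1, triangles number 2). Blue and red points of the same shape lie close for most genes, while circles and triangles lie apart for Foxf1, Ebf1, Ebf2 and Twist1.

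Several members, the Ebf genes and Twist1 among them, were further apart between the array numbers than between the genotypes. Of the 133 probe sets, 18 were at least 2-fold higher on the array numbered 2 within both genotypes (13.5%, background 6.69%) and 0 at least 2-fold lower (background 0.3%). Among those on in WT it was 9 of 54 (16.7%, background 3.27%), and 0 the other way (background 0.183%). The 18 belonged to 12 genes: Ebf1, Ebf2, Ebf3, Twist1, Foxf1, Tbx15, Tbx18, Tbx4, Sox11, Zic1, Gata6 and Foxp1. By the brightest probe set of each gene it held for 6 genes: Ebf1, Ebf2, Twist1, Foxf1, Tbx4 and Zic1. Foxp1 was among the 12 by a probe set that was not on, while its brightest had 0.690 times in WT and 0.596 in Ezh2cKO. The brightest Gata6 probe set had 0.819 times in WT and 1.73 in Ezh2cKO. Twist1 was 2.41-fold higher on number 2 within WT and 2.58-fold within Ezh2cKO. Foxf1 was 3.22-fold and 5.44-fold higher. By its brightest probe set Foxn1 ran the other way, at 0.504 and 0.602 times. Its second probe set, also on, had 0.865 times in WT and 1.39 in Ezh2cKO. The count of 18 probe sets depends on the scaling: it was 9 under quantile normalization (6.77%, background 2.64%) and 7 under scaling to a common median (5.26%, background 2.08%). The latter also gave 7 probe sets at least 2-fold lower (background 4.13%). The dermal fibroblast markers were higher on number 2 in both genotypes in 5 of 8 cases, with median log2 differences of 0.26 in WT and 0.47 in Ezh2cKO, and the endothelial markers in 7 of 8, with medians of 0.32 and 1.37. The part of either cell type in these values was not tested. What the numbers stand for is not given in the labels.

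**Figure D4:**
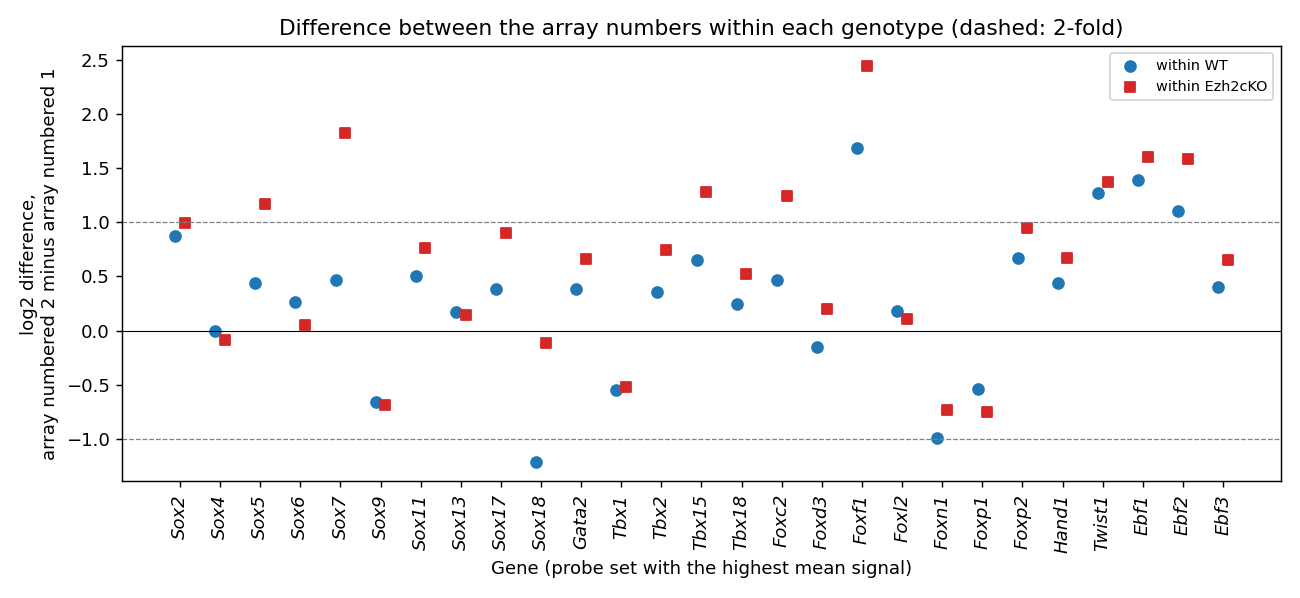
For the 27 genes on in WT, points show the log2 difference between the array numbered 2 and the array numbered 1 (y axis, of signal + 16) within WT (blue) and within Ezh2cKO (red). Ebf1, Ebf2, Twist1 and Foxf1 lie above the dashed 2-fold line in both genotypes, and Sox4 lies near 0.

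Other genes of the same families and their dimer partners, such as Gata3, Sox10, Foxo and Id genes and the E proteins Tcf3, Tcf4 and Tcf12, were taken from a separate list. Of 61 measured, 33 were on in WT. None of their 120 probe sets passed limma's adjusted threshold, as none of all 45037 did, and at an unadjusted p under 0.05 limma had 1 higher and 0 lower. The genotypes separated upwards for 10 of the 120 (8.33%, background 9.11%). They separated downwards for 18 of the 120, a share well above the background of 8.23%, and the cause was not tested. A single one (0.833%, background 1.18%) was at least 1.5-fold higher within both numbers and 0 were lower (background 0.562%). That was Zic5, a neural zinc finger factor, with 5.55 and 8.07 in WT and 67.2 and 60.1 in Ezh2cKO by its brightest probe set. Of its other 2 probe sets, the former overlapped between the genotypes and the latter separated them downwards, at 14.7 ± 8.61 and 8.69 ± 0.487 in WT and 20.8 ± 11.1 and 6.94 ± 0.134 in Ezh2cKO (mean ± SD, n = 2).

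RefSeq promoters were matched for 36 of the 58 genes, over a window of 300 bases around the start. The median number of CG dinucleotides was 23 over the 36, against 17 over 14449 genes with a probe set. Genes on in WT had a median of 21 (8851 genes) and genes not on a median of 7 (5598 genes). Among members it was 18.5 for the 16 on and 25.5 for the 20 not on, so the median of the members not on lay above that of all genes not on. Sox1, shown above, had 37, the most of the 20 members not on, and Sox4 had 12, below the median of the 16 on. Foxc1 had 32 and Foxf2 27, while the muscle gene Myf5 had 3. The dinucleotide reads the same on both strands.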

How the data were processed

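The values the authors deposited are intensities from MAS5 (a tool credited to the submitters' processing notes, version not given), unlogged, with a value for every probe set on each of the 4 arrays. Each array had a 2% trimmed mean of 500.0, so the authors' scaling was kept. MAS5 is noisy for dim probe sets, and detection calls were not used here. Without the 64 controls there were 45037 probe sets, and 34945 had 1 gene symbol in the platform annotation. Symbols were updated through RefSeq (GRCm38.p6). Signals were transformed as log2(signal + 16) and fitted in limma 3.58.1 (R 4.3.3, lmFit and eBayes with an intensity trend, 4 arrays, no block, no intensity filter), with Benjamini-Hochberg adjustment over all probe sets. The fit was also run on simulated data, and the outcome is not given here. Named were Ezh2, members on in WT, members moving 1.5-fold within both numbers, the largest difference of each family within each number, and others as values. The members and lists were chosen with earlier results of these data known. Arrays were grouped by their titles. Marker lists of 10 cell types and a list of other family members are given by counts and sums. Alternatives were other pseudocounts, intensity filters, scalings, levels, a replicate block and leaving out each array.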

Additional observations from a re-analysis of the deposited data

How the results depend on the processing

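Depth does not apply to arrays. Their number and dim signal limit precision. The count of called members stayed at 0 in limma in the settings run on all 4 arrays. Those were pseudocounts of 1 and 64, the upper 60% and 40% of probe sets, both scalings, no intensity trend and an adjusted p of 0.1. At an adjusted p of 0.05, 0 of all probe sets passed in these fits as well. A fit without 1 array assumes that the lone array of a genotype varies like the other genotype's pair, so only log2 differences are taken from it. Since Ezh2 itself did not pass, a count of 0 says nothing about stability. With the replicate number as a replicate block it was also 0, with 7 members higher (5.26%, all probe sets 2.96%) and 1 lower (0.752%, all 1.85%) at an unadjusted p under 0.05. The WT and Ezh2cKO differences between the numbers correlated at 0.61 over 45037 probe sets, but the labels do not say what a number stands for, and with 2 pairs the arrays were not treated as paired. Members moving within both numbers were 5 higher and 3 lower with a pseudocount of 1 (3.76% and 2.26%, all probe sets 3.12% and 2.04%). The 1 higher became 0 with a pseudocount of 64, in the upper 60% or 40%, at 2-fold, or with the brightest probe set per gene. Separated members were 5 higher and 3 lower in the upper 60%, 3 and 1 in the upper 40%, and 4 and 5 by brightest probe sets (7.02% and 8.77%). Fewer probe sets were counted there, and the share of all probe sets was not taken, so these counts have no background to be read against. The lower count was 18 with quantile normalization (13.5%, all 11.0%) and 19 with a common median (14.3%, all 8.75%), and the cause was not tested. Genes on numbered 5 with the 75th percentile as the level, by construction. With 1 array left out the median log2 difference of the members was between -0.305 and 0.208. Of 37 named members, 32 had another sign in at least 1 fit without an array. The counts within both numbers and of separated members need all 4 arrays and were not run without one. The differences between array numbers were examined after seeing the data, and their count was 24 with a pseudocount of 1 (all probe sets 11.3%) and 9 with 64 (all 2.71%).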
